A study of Mus musculus with 12 samples.

Results

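The transcripts described here are those of 9 chemokine receptors carried by leukocytes and tissue cells, namely Ccr1, Ccr2, Ccr7, Ccrl2, Cx3cr1, Cxcr2, Cxcr4, Cxcr6 and Ackr3, chosen by name from the 25655 genes in the tables. They were measured by bulk sequencing of total RNA from the whole retina of C57BL/6J mice aged 8 to 10 weeks, 2 days after optic nerve crush (ONC), in which the nerve of the left eye is squeezed behind the globe. All 4 groups of 3 samples had the crush and an intravitreal injection, of PBS as the control, of Fluvastatin, of MBV, or of MBV and Fluvastatin together. Fluvastatin is a statin, an inhibitor of HMG-CoA reductase, and MBV are matrix-bound nanovesicles prepared from porcine urinary bladder. Since every eye was crushed, no value below compares injured with uninjured retina. The labels number the samples within a group without naming animals, so the p-values measure the spread between these samples.

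Chemokine receptors are cell surface proteins that leukocytes use to follow gradients of secreted chemokines out of blood and through tissue. Most of them signal through inhibitory G proteins, while atypical receptors bind a chemokine and remove it without classical G protein signalling. In the retina, CX3CR1 is the receptor of resident microglia for fractalkine (CX3CL1), which neurons make. CCR2, the receptor for CCL2, marks classical monocytes arriving from blood, and CXCR2, the receptor for CXCL1 and CXCL2, is carried by neutrophils.

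Counts that name their library were used for all 3 samples of each of the PBS, Fluvastatin and MBV groups, 9 libraries with 21349516 to 30992040 counts on genes per library. The combined treatment was described only through a group mean that the authors deposited. The labels number the libraries of PBS and the combined treatment from 1 to 6, and those of Fluvastatin and MBV again from 1 to 6, so a difference of either single treatment from PBS cannot be told apart from a difference between these library sets. The retinal origin was plain in each library, where 10 markers of retinal neurons and glia summed to between 19700 and 33500 CPM. CPM are counts per 1000000 of the library size after scaling by the trimmed mean of M values (TMM).

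Of the 9 receptors, 1 passed the test in MBV against PBS and 1 in Fluvastatin against PBS, and both times it was Ackr3, which fell. None passed in MBV against Fluvastatin by edgeR or by DESeq2, and 2 (Ccr2 and Cxcr2) were under 0.05 there before adjustment. The test was the quasi-likelihood test of edgeR, adjusted by Benjamini-Hochberg over all genes tested, at an adjusted p under 0.05. Of all genes tested, 26.1% passed in MBV against PBS, 19.6% in Fluvastatin against PBS and 0.0588% in MBV against Fluvastatin. The share of receptors was 11.1% in each of the first 2. The median log2 fold change of the 9 receptors was 0.28, −0.10 and 0.23 in the 3 comparisons, beside 0.01, −0.01 and 0.01 for all genes.

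Ackr3 (ENSMUSG00000044337) lies on the plus strand at chr1:90131702-90144473 in GRCm39. It encodes an atypical receptor that binds CXCL12 and CXCL11 and clears them. Its counts were 184, 107 and 156 under PBS, 77, 79 and 61 under Fluvastatin, and 50, 52 and 72 under MBV. All 6 treated libraries were below all 3 PBS libraries in CPM. In CPM its level was 5.19 ± 1.33 (SD, n = 3) under PBS, 2.90 ± 0.30 (SD, n = 3) under Fluvastatin and 2.43 ± 0.63 (SD, n = 3) under MBV. It was 2.16-fold lower under MBV (log2 fold change −1.11 ± 0.24 SE, edgeR adjusted p = 0.0107) and 1.78-fold lower under Fluvastatin (−0.83 ± 0.20 SE, edgeR adjusted p = 0.0159). Both comparisons use the same PBS libraries. Ackr3 was one of 2 receptors whose libraries did not overlap between MBV and PBS, the other being Ccr7, and the only one for Fluvastatin and PBS. That form of separation was common, at 41.3% of all genes for MBV and 36.6% for Fluvastatin. Between MBV and Fluvastatin the Ackr3 difference was −0.26 ± 0.22 (SE) on the log2 scale, with an edgeR adjusted p of 0.695.

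Ackr3 no longer passed when certain single libraries were left out, while its fold change stayed of like size. Without PBS replicate 1 the log2 fold change was −0.99 for MBV (edgeR adjusted p = 0.0504) and −0.72 for Fluvastatin (edgeR adjusted p = 0.0784). Without Fluvastatin replicate 2 or 3 it was −0.85 or −0.76 (edgeR adjusted p = 0.0615 or 0.0568). Pmel, a melanosome gene of pigmented cells, separated the same libraries, with 478 to 639 counts under PBS, 97 to 130 under Fluvastatin and 55 to 110 under MBV. Of the 8 markers of pigment epithelium and lens, 3 fell under Fluvastatin (Pmel, Tyr and Mlana), which is 37.5% beside 19.6% of all genes. Under MBV these 3 fell while 4 lens genes (Cryba1, Cryaa, Crygs and Mip) rose, which is 87.5% beside 26.1%. Rpe65, also of the pigment epithelium, went the other way without passing. Its log2 fold change was 0.51 ± 0.21 (SE) under Fluvastatin and 0.36 ± 0.38 (SE) under MBV (edgeR adjusted p = 0.122 and 0.52). The summed level of the 8 was 34.2 to 42.7 CPM under PBS, 16.4 to 30.1 under Fluvastatin and 63.7 to 120.0 under MBV. None of the 8 was at 0 in every library, and their part in the Ackr3 difference was not tested. In bulk retina, fewer cells of a type and less RNA per cell cannot be told apart.

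Ccr2 (ENSMUSG00000049103, plus strand, chr9:123901987-123913594) had the largest fitted difference of both MBV comparisons among the 7 receptors with more than 3 counts in some library of each group, but did not pass the test. Its counts were 21, 8 and 40 under PBS, 12, 32 and 13 under Fluvastatin, and 65, 13 and 222 under MBV. MBV replicate 3 stood far above the other 8 libraries, MBV replicate 1 was the next highest, and MBV replicate 2 was within the PBS range. The mean was 0.825 ± 0.636 CPM (SD, n = 3) under PBS, 0.747 ± 0.390 (SD, n = 3) under Fluvastatin and 4.16 ± 4.71 (SD, n = 3) under MBV. The log2 fold change was 2.34 ± 0.87 (SE) for MBV against PBS, with an edgeR adjusted p of 0.0787. It was 0.90 without MBV replicate 3 (edgeR adjusted p = 0.293) and 2.85 without MBV replicate 2 (edgeR adjusted p = 0.0169). With all 9 libraries in 1 fit Ccr2 passed, at an edgeR adjusted p of 0.0492. It also passed with a term for the replicate number (edgeR adjusted p = 0.00853), and did not by DESeq2 (adjusted p = 0.12). Against Fluvastatin, in libraries of the same numbering set, MBV was higher by 2.45 ± 0.82 (SE) on the log2 scale, which did not pass (edgeR adjusted p = 0.366). Fluvastatin differed from PBS by −0.10 ± 0.55 (SE), with an edgeR adjusted p of 0.922.

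**Figure D1:**
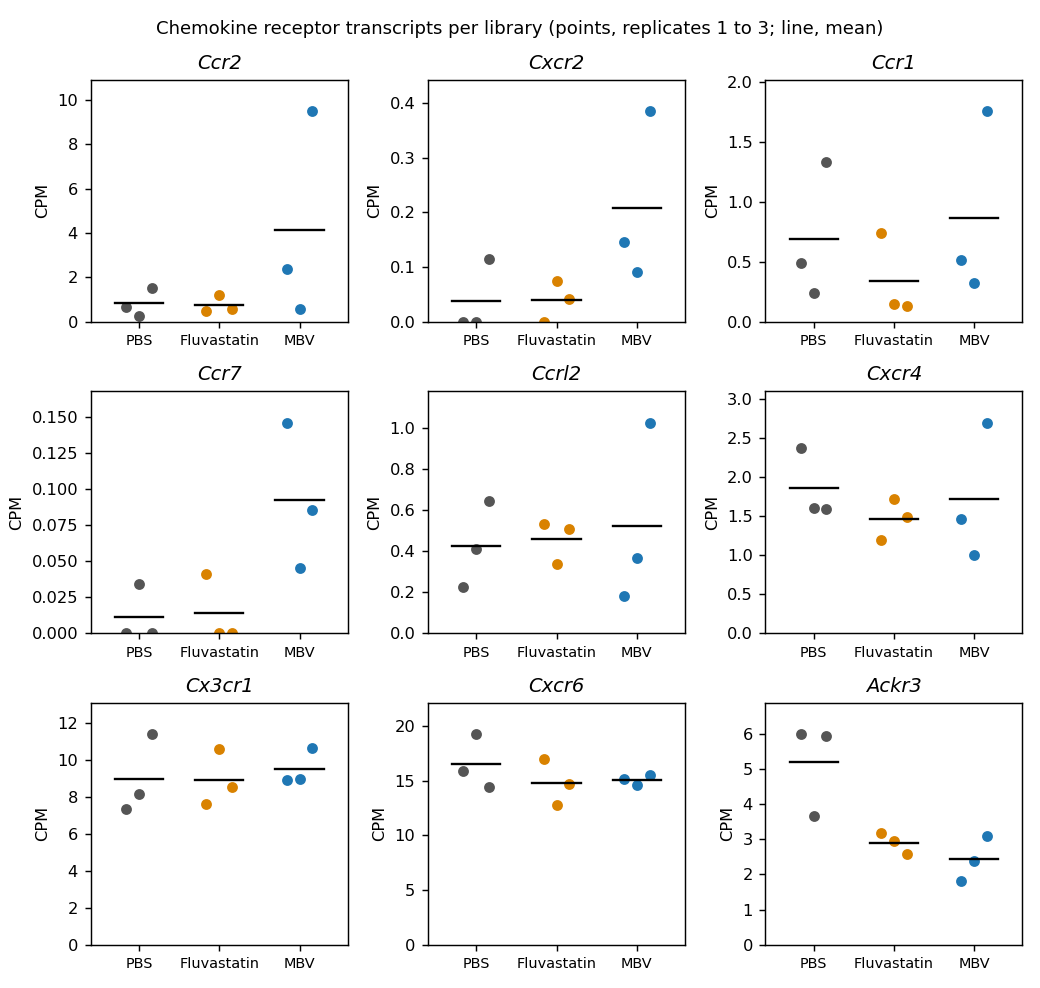
Level of each receptor in CPM (vertical axes from 0, each with its own scale) in the 9 libraries by group (horizontal axis), with points for replicates 1 to 3 from left to right and a line for the group mean. Ackr3 was lower in all 6 treated libraries than in the 3 PBS libraries, and MBV replicate 3 held the highest value of Ccr1, Ccr2, Ccrl2, Cxcr2 and Cxcr4.

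The bases around the start of Ackr3, the receptor that passed, and of Ccr2, the receptor with the widest spread, are given as RefSeq lists them, from 250 bases before to 50 after the annotated start. RefSeq had such windows for 8 of the 9 receptors and its table is of GRCm38.p6. Each window was found once, by its sequence, on the chromosome of its gene in GRCm39. The Ackr3 window is chr1:90131452-90131751 on the plus strand and the Ccr2 window is chr9:123901970-123902269 on the plus strand, where the RefSeq start lies inside the gene as the tables draw it. Capitals mark matches to the TATA box letters TATAAA and the C/EBP letters TTGCNNCAA.
Ackr3: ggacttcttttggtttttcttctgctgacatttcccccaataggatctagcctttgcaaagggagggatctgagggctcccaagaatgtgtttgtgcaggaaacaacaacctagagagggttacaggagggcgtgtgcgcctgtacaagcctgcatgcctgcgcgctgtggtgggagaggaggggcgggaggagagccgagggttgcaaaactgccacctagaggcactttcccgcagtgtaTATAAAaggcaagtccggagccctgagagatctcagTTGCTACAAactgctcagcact
Ccr2: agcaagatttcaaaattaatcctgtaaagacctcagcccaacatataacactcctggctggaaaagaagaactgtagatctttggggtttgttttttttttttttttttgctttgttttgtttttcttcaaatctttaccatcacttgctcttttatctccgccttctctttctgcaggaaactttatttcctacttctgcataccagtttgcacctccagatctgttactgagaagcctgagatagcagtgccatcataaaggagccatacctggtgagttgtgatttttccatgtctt
Ackr3 and Cxcr4 were the 2 of the 8 receptors with TATAAA on either strand, which 13.6% of all 32851 windows held. The Ackr3 window also held the C/EBP letters, as did 2.08% of all windows. The letters searched for PU.1 (GAGGAAGT, in 3.20% of windows), AP-1 (TGANTCA, in 7.81%) and STAT (TTCNNNGAA, in 8.30%) matched in none of the 8 receptors, on either strand. These matches describe the letters in the window and say nothing of a factor's binding.

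MBV replicate 3 was the library with the highest CPM for 5 of the 9 receptors, Ccr1, Ccr2, Ccrl2, Cxcr2 and Cxcr4, while 12.3% of the 19115 genes with a count had their highest value there. It was also the highest library for 9 of 10 monocyte markers. Of the markers with a count, the same held for 5 of 9 of neutrophils, 3 of 7 of lymphocytes and 2 of 10 of microglia. Ly6c2, the gene of the Ly6C surface marker of classical monocytes, had 67 counts there and 0 to 2 in the other 8 libraries. Plac8 had 75 counts there and 1 to 10 elsewhere, and Lyz2, lysozyme of myeloid cells, had 1307 there and 63 to 397 elsewhere. The 10 monocyte markers summed to 62.9 to 97.8 CPM under PBS, 90.1 to 132.0 under Fluvastatin and 136.0 to 198.0 under MBV. Fibronectin (Fn1) made up 64.9% to 97.5% of that sum; the mean over the 10 of log2(CPM + 0.5), which weights each marker alike, was 0.22 to 0.57 over the 6 PBS and Fluvastatin libraries, and 0.50, 0.24 and 2.08 in MBV replicates 1 to 3. None of the 10 was at 0 in every library. Under MBV against PBS Fn1 and F10 passed, both higher, which is 20.0% of the 10 beside 26.1% of all genes. Ly6c2, Plac8 and Lyz2 did not pass there (edgeR adjusted p = 0.0684, 0.135 and 0.343). Under Fluvastatin Fn1 rose and Lyz2 fell (edgeR adjusted p = 0.00781 and 0.024), which is 20.0% beside 19.6% of all genes. The part of these markers in the Ccr2 difference was not tested.

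**Figure D2:**
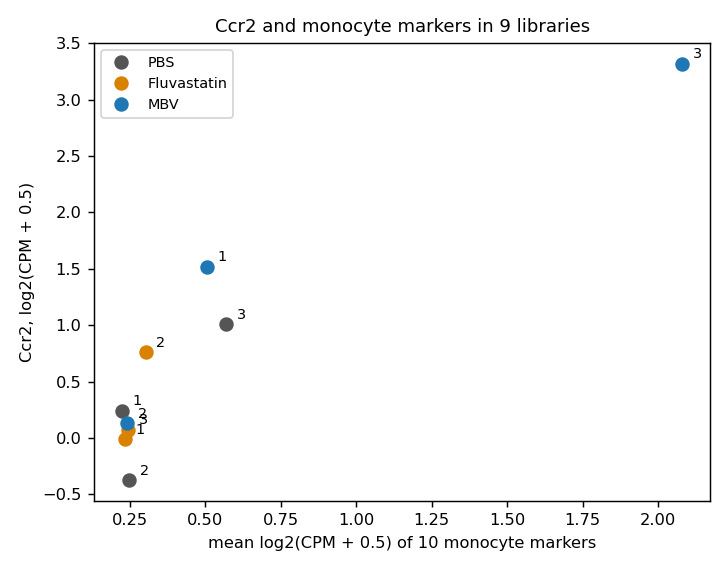
Ccr2 (vertical axis, log2 of CPM plus 0.5) against the mean of 10 monocyte markers (horizontal axis, the same scale) in 9 libraries, coloured by group and numbered by replicate. MBV replicate 3 lies alone at the upper right, with 3.32 for Ccr2 and 2.08 for the markers, and the other 8 libraries lie at or below 1.52 and 0.57.

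Cxcr2 and Ccr7 were close to the limit of detection. Cxcr2 (ENSMUSG00000026180, chr1:74193148-74200405, plus strand) had 0, 0 and 3 counts under PBS, 0, 2 and 1 under Fluvastatin, and 4, 2 and 9 under MBV. The 15 counts of the MBV libraries against 3 of the PBS libraries gave a ratio of 6.05 per count on genes, with an exact 95% interval of 1.71 to 32.6 that covers counting error only. Across replicates the difference did not pass (edgeR adjusted p = 0.139 against PBS and 0.449 against Fluvastatin). Ly6g, the neutrophil surface marker, had 0 counts in all 9 libraries, and the 10 neutrophil markers summed to 9.41 to 14.3 CPM under PBS, 13.8 to 16.8 under Fluvastatin and 15.9 to 21.3 under MBV. Mmp9 made up 73.2% to 90.2% of that sum in a library, and the other 9 markers summed to 2.25 to 3.15 CPM under PBS, 1.65 to 1.98 under Fluvastatin and 1.74 to 5.69 under MBV. Of the 9 that could be tested, Mmp9 rose and Ltf fell under MBV, which is 22.2% beside 26.1% of all genes. Under Fluvastatin Mmp9 rose while Ltf and S100a8 fell, which is 33.3% beside 19.6% of all genes.

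Ccr7 (ENSMUSG00000037944, chr11:99035022-99045903, minus strand), which guides dendritic cells and T cells toward CCL19 and CCL21, had 0, 1 and 0 counts under PBS, 1, 0 and 0 under Fluvastatin, and 4, 1 and 2 under MBV. The ratio of 7 to 1 counts between MBV and PBS was 8.47 per count on genes, with an exact 95% interval of 1.09 to 382.0 for counting error. Its edgeR adjusted p was 0.131. In CPM every MBV library lay above every PBS and every Fluvastatin library for Ccr7, and for Cxcr2 above every Fluvastatin library. These were the 2 receptors that did not overlap between MBV and Fluvastatin, where 16.4% of all genes did not. At 1 to 4 counts such an order rests on single reads. The 8 dendritic cell markers summed to 90.8 to 99.0 CPM under PBS, 97.5 to 106.0 under Fluvastatin and 112.0 to 138.0 under MBV. Without Fscn1, which made up 49.5% to 82.1% of the sum in a library, they came to 20.7 to 25.2, 17.5 to 22.7 and 23.0 to 69.8 CPM. None of them passed under MBV by edgeR or DESeq2 and 0 were under 0.05 before adjustment, where 26.1% of all genes passed by edgeR. The MHC class II gene H2-Aa fell under Fluvastatin, which is 12.5% of the markers beside 19.6% of all genes. Lymphocyte markers were near the floor, with a sum of at most 1.43 CPM over 10 genes and with Cd3g, Trbc2 and Ncr1 at 0 in all 9 libraries.

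Ccr1 (ENSMUSG00000025804, chr9:123762161-123768729, minus strand), a receptor for CCL3 and CCL5 on myeloid cells, had 15, 7 and 35 counts under PBS, 18, 4 and 3 under Fluvastatin, and 14, 7 and 41 under MBV. The third replicate was the highest of both PBS and MBV, and the groups overlapped. The log2 fold change was 0.34 ± 0.71 (SE, edgeR adjusted p = 0.755) for MBV and −0.99 ± 0.73 (SE, edgeR adjusted p = 0.389) for Fluvastatin, both against PBS. Ccrl2 (ENSMUSG00000043953, chr9:110883554-110886587, minus strand), an atypical receptor that binds chemerin without signalling, had 7, 12 and 17 counts under PBS, 13, 9 and 12 under Fluvastatin, and 5, 8 and 24 under MBV. Its log2 fold change was 0.28 ± 0.63 (SE, edgeR adjusted p = 0.773) for MBV and 0.12 ± 0.45 (SE, edgeR adjusted p = 0.886) for Fluvastatin. With so few counts, the standard errors left room for changes in either direction.

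Cxcr4 (ENSMUSG00000045382, chr1:128515936-128520030, minus strand) is the signalling receptor for CXCL12, the ligand it shares with ACKR3. Its counts were 73, 47 and 42 under PBS, 29, 46 and 35 under Fluvastatin, and 40, 22 and 63 under MBV. The MBV libraries spanned the range of both other groups. It was at 1.86 ± 0.45, 1.47 ± 0.26 and 1.72 ± 0.87 CPM (SD, n = 3) under PBS, Fluvastatin and MBV, and neither change passed (edgeR adjusted p = 0.366 for Fluvastatin and 0.823 for MBV). Cxcl12 itself had 380 to 505 counts under PBS, 437 to 782 under Fluvastatin and 356 to 557 under MBV, and did not pass in any comparison.

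Cx3cr1 (ENSMUSG00000052336, minus strand) differed little between group means. It had 225, 238 and 299 counts under PBS, 185, 283 and 201 under Fluvastatin, and 243, 196 and 248 under MBV. The means were 8.93 ± 2.14, 8.91 ± 1.52 and 9.48 ± 0.98 CPM (SD, n = 3), and the log2 fold changes from PBS were 0.08 ± 0.16 (SE) for MBV and 0.00 ± 0.17 (SE) for Fluvastatin, with edgeR adjusted p of 0.742 and 0.992. The 10 microglia markers summed to 86.6 to 97.3 CPM under PBS, 75.5 to 85.3 under Fluvastatin and 80.7 to 98.6 under MBV. Gpr34 was among those that fell under Fluvastatin, which were 20.0% of the 10 beside 19.6% of all genes. The region the tables give for Cx3cr1, chr9:119730682-119898945, starts before the gene in GENCODE M39, at 119877749, and covers 5 other genes. By GENCODE exons these share none with Cx3cr1, but that cannot speak for the longer region the authors counted. Whether reads of these genes entered the Cx3cr1 counts, also used in the ratio below, was not tested.

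The ratio of Ccr2 to Cx3cr1 counts set the monocyte receptor against the microglial one inside each library. Per 100 Cx3cr1 counts there were 9.33, 3.36 and 13.4 Ccr2 counts under PBS, 6.49, 11.3 and 6.47 under Fluvastatin, and 26.7, 6.63 and 89.5 under MBV. MBV replicates 1 and 3 were above all 6 PBS and Fluvastatin libraries, and MBV replicate 2 was inside their range.

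Cxcr6 (ENSMUSG00000048521, chr9:123635540-123640825, plus strand), the receptor for CXCL16 on T cells and natural killer cells, took the most counts of the 9, from 34.8% to 57.3% of them in a library. Its counts were 489, 564 and 380 under PBS, 412, 343 and 347 under Fluvastatin, and 414, 320 and 363 under MBV. The means were 16.5 ± 2.46, 14.8 ± 2.08 and 15.1 ± 0.457 CPM (SD, n = 3), and the log2 fold changes from PBS of −0.14 ± 0.11 (SE) for MBV and −0.16 ± 0.13 (SE) for Fluvastatin did not pass (edgeR adjusted p = 0.365 and 0.426). Cxcr6 lies within Fyco1, a gene of the other strand, and shares no exon with it. The sources used here do not say whether counting used strand, so reads from unspliced Fyco1 RNA and from Cxcr6 may not be told apart. There were 2.93 to 3.93 Cxcr6 counts per 100 Fyco1 counts over the 9 libraries, while the lymphocyte markers summed to at most 1.43 CPM.

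**Figure D3:**
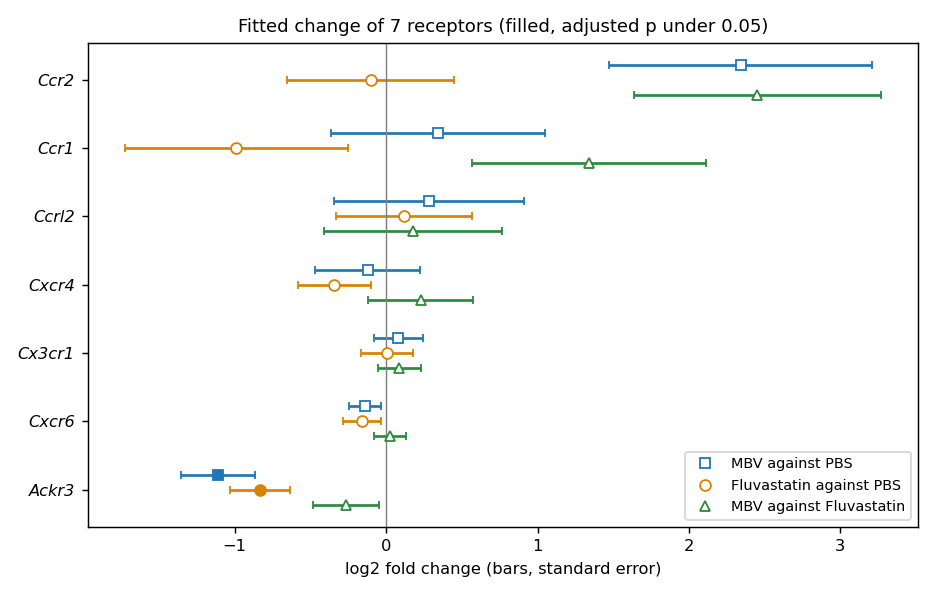
Fitted log2 fold change (horizontal axis) of 7 receptors (vertical axis) in 3 comparisons, with bars for the standard error and filled symbols for an adjusted p under 0.05. Ackr3 carries the 2 filled symbols, at −1.11 for MBV and −0.83 for Fluvastatin against PBS, and the bars of Ccr1, Ccr2 and Ccrl2 are the widest.

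The authors' group means, which they scaled to gene length and depth, allowed the receptors to be ranked and the combined treatment to be described. Each table gives for each gene the larger of its 2 group means. The PBS mean was fixed where 2 tables of PBS held the same value and otherwise could only be bounded from above. Any value of the combined table above that bound must be the mean of the combined treatment. That mean is of a group of 3 samples, comes with no SD, and was not tested here. The paper did test this group against PBS and lists Ccr1, Ccr2 and Cxcr2 as higher. The scale's base is not stated in the sources used here, so the levels are comparable within it only.

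With PBS, Cxcr6 was the highest receptor on this length-scaled measure at 2.88 (2.52 to 3.36 over the 3 libraries), followed by Cx3cr1 at 0.676 (0.553 to 0.860), Ackr3 at 0.530 (0.373 to 0.611) and Cxcr4 at 0.349 (0.300 to 0.445). Cxcr6 stood clear of the rest, but its counts may include reads from unspliced Fyco1 RNA, as given above. Cx3cr1 and Ackr3 overlapped between libraries, as did Ackr3 and Cxcr4. The PBS means of the others were at most 0.0843 for Ccr1, 0.0562 for Ccrl2, 0.0425 for Ccr2, 0.00444 for Cxcr2 and 0.00220 for Ccr7.

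In the combined treatment Ccr2 was at 0.626 on the length-scaled measure, at least 14.7-fold higher than under PBS. Ccr1 was at 0.259, at least 3.08-fold higher. These were the 2 of 7 receptors with a fold that reached 2-fold over PBS, where 1.38% of the 16594 genes with a fold did. The receptors were chosen with earlier results known, and the paper lists Ccr1 and Ccr2 as higher in this same group. Their count is therefore a description and no separate evidence. Cxcr4 was 1.55-fold higher at 0.542, Cx3cr1 was 1.39-fold higher at 0.938, Ccrl2 was at least 1.18-fold higher at 0.0661, and Cxcr6 was at 2.89 beside 2.88. Ackr3 was at or below its PBS level of 0.530. Cxcr2 and Ccr7, with at most 3 counts in any PBS library, reached 0.10 and 0.0490, and no fold is given for them.

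The MBV means on the same scale were 0.192 for Ccr2, 0.0947 for Ccr1, 0.0629 for Ccrl2, 0.0212 for Cxcr2 and 0.0144 for Ccr7, each below the combined treatment's value. For Ackr3 the MBV mean was at most 0.273, so it was below the PBS mean there too. Since the spread of the combined libraries is unknown, these gaps were not tested. MBV and the combined treatment also lie in different library sets, which cannot be told apart from the treatment. For Ccr2 the MBV mean was led by replicate 3, at 9.50 CPM beside 2.38 and 0.594 in replicates 1 and 2. In the combined treatment 1.38% of all genes with a fold were at least 2-fold higher than under PBS. Of the 8 monocyte markers with a fold, 7 were this high. The same held for 3 of 7 dendritic cell, 1 of 7 neutrophil and 1 of 3 lymphocyte markers, and for none of the 10 microglia markers. The lists were chosen with earlier results known, and the paper reports Slamf7, Ms4a4c, F10 and Lyz2 as higher in this same group. The monocyte count is therefore a description and no separate evidence. The part of these markers in the receptor differences was not tested.

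**Figure D4:**
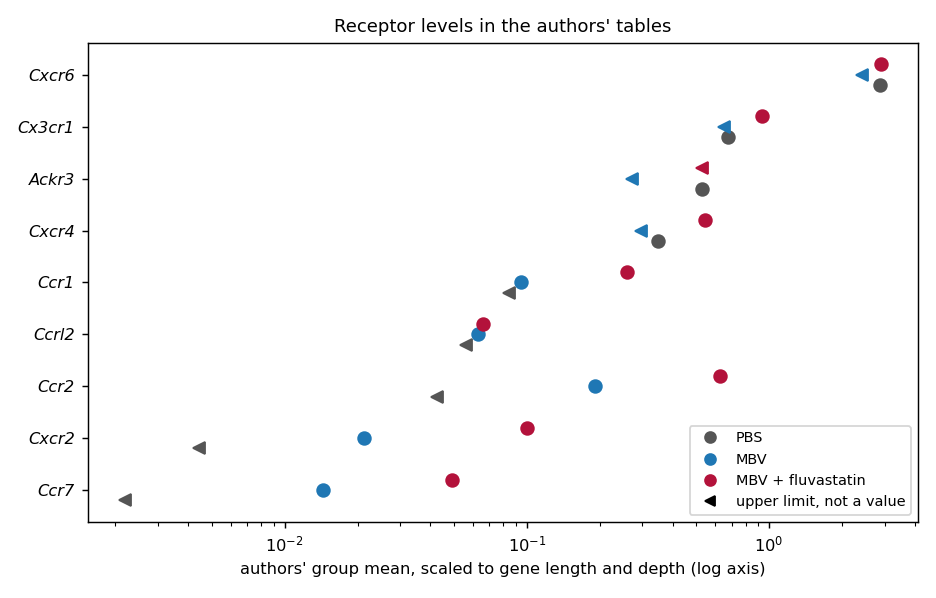
Authors' group mean of each receptor (horizontal log axis, scaled to gene length and depth) for PBS, MBV and the combined treatment, with circles for values and left-pointing triangles for upper limits. Ccr2 is at most 0.0425 under PBS, 0.192 under MBV and 0.626 with both, and Cxcr6 is at 2.88 and 2.89 under PBS and both. The MBV value of Ccr2 was led by MBV replicate 3.

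Of 21 chemokines and other ligands that bind these receptors, 4 rose and 1 fell under MBV against PBS, and 1 rose and 2 fell under Fluvastatin, with median log2 fold changes of 0.44 and 0.18. These are 23.8% and 14.3% of the ligands, no more than the 26.1% and 19.6% of all genes that passed. Cx3cl1, the ligand of CX3CR1, was among the higher ones in both treatments (log2 fold change 0.29 ± 0.05 SE under MBV and 0.36 ± 0.05 SE under Fluvastatin, edgeR adjusted p = 0.0034 and 0.00198), at 76.8 to 86.4 CPM under PBS and 99.3 to 109.1 in the 6 treated libraries. Cxcl16, the ligand of CXCR6, was lower in both (−0.37 ± 0.09 SE and −0.29 ± 0.08 SE, edgeR adjusted p = 0.0164 and 0.0263), from 13.3 to 14.5 CPM under PBS to 9.77 to 12.1 in the treated libraries. Both comparisons share the PBS libraries.

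Ccl2, the main ligand of CCR2, had 9, 1 and 5 counts under PBS, 14, 1 and 33 under Fluvastatin, and 24, 23 and 17 under MBV. It rose under MBV (log2 fold change 2.31 ± 0.52 SE, edgeR adjusted p = 0.0117), and all 3 MBV libraries were above all 3 PBS libraries. Ccl5, a ligand of CCR1, had 4 counts in each PBS library and 20, 6 and 29 under MBV (2.39 ± 0.59 SE, edgeR adjusted p = 0.0170). Cxcl2, a ligand of CXCR2, had 2, 0 and 8 counts under PBS and 8, 26 and 19 under MBV (2.62 ± 0.84 SE, edgeR adjusted p = 0.0477), and was at 0 in the 3 Fluvastatin libraries. Ccl9, a ligand of CCR1, fell under Fluvastatin (−0.72 ± 0.17 SE, edgeR adjusted p = 0.0157). Unlike Ccr2, Ccl2 was not led by MBV replicate 3, which had the lowest count of the 3. In the combined treatment 3 of 17 ligands with a fold reached at least 2-fold over PBS, where 1.38% of all genes with a fold did. They were Ccl6 at 4.20-fold, Ccl5 at 2.70-fold and Ccl2 at 2.33-fold, each as a lower bound. The paper lists these 3 as higher in this same group, so the count is a description.

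Among 16 other chemokine receptors, 13 had a count and could be tested in MBV against PBS. Ackr1, the scavenging receptor of venules and red cells, rose under MBV (0.40 ± 0.08 SE, edgeR adjusted p = 0.00535), as did Ccr10 (0.81 ± 0.20 SE, edgeR adjusted p = 0.0157), and none fell. The 2 that rose are 15.4% of the 13, beside 26.1% of all genes. Under Fluvastatin 0 of 13 passed by edgeR or DESeq2, and 2 were under 0.05 before adjustment. Of all genes, 19.6% passed there by edgeR. Ccr8 and Cxcr1 were at 0 in all 9 libraries. In the combined treatment Cmklr1, a chemerin receptor, was at least 2.09-fold higher than under PBS.

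Of 25 genes that carry or end the receptors' signal, 7 rose and 1 fell under MBV, which is 32.0% beside 26.1% of all genes. Arrb2, a β-arrestin that draws bound receptors into the cell, had the smallest adjusted p of those that rose (0.64 ± 0.06 SE, edgeR adjusted p = 0.000531), followed by Prex1, Grk3 and Grk2, and the G protein subunit Gnb1 fell (−0.55 ± 0.11 SE, edgeR adjusted p = 0.00674). Under Fluvastatin Arrb2 and Grk6 rose and Gnai3 and Gnb1 fell, which is 16% beside 19.6% of all genes. In MBV against Fluvastatin none of the ligands, other receptors or signalling genes passed by edgeR, where 4, 2 and 6 were under 0.05 before adjustment, and DESeq2 called 1 ligand and none of the others.

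The genes whose pattern was most like that of a receptor were sought over the 9 libraries among genes averaging at least 10 counts, by Pearson's r of log2 of CPM plus 0.5. For Ackr3 they were Wls (r = 0.990), Tgfbr3 (0.975) and Psmb2 (0.975). For Ccr2 they were H2-Ab1 (r = 0.973), Vav1 (0.963) and Srgn (0.962), for Cxcr2 Sp100 (0.966), Dock2 (0.964) and Stab1 (0.960), and for Cx3cr1 Capg (0.962), Il1rl2 (0.929) and Nkain2 (0.904). Ccr2 and Cxcr2 had an r of 0.959 with each other, and Ccr2 and Ackr3 an r of −0.14. The points share libraries, groups and depth, and each gene was picked as the highest of 15055 or 15056 compared, so these values are a description.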

How the data were processed

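Total RNA of 12 retina samples was sequenced by the authors with 75-base paired reads after a TruSeq total RNA preparation, and aligned to GRCm39 in CLC Genomics Workbench. Aligner settings, annotation and strand setting are not given in the sources used here. The deposited tables, 4 in all, hold raw counts per gene as the authors made them, 1 table per comparison. They also hold the authors' fold changes and p-values, which were not used. A further deposited column, a signal value scaled by the authors to gene length and depth, gives the larger of the 2 group means. Its scale was checked to be shared: for all 19115 genes above 0, the highest value stood in 2 of the 3 tables of named groups, and of 10485 genes with a known PBS mean, 0 were below it in the combined treatment's table. In the combined treatment's table, 6 count columns name no library and were not used, so no count comparison with that group was run. The 9 named columns that recur between tables were identical.

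Libraries were compared in pairs of groups with edgeR 4.0.16 (R 4.3.3), with TMM scaling, genes with at least 1 count in the 6 libraries, the quasi-likelihood test and Benjamini-Hochberg adjustment over all genes, called under 0.05. The procedure was tested on simulated data. DESeq2 1.42.0, other scalings, a filter on counts, a fold minimum, a joint fit, a replicate term and leaving out each library were the alternatives. The biological coefficient of variation was 7.78% to 10.1%. The rest was done in Python (3.11.15) with scipy (1.17.1), numpy (2.4.6), pandas (2.3.3) and matplotlib (3.10.9). A group with at most 3 counts of a gene in each library was treated as at the limit, and intervals are exact at 95% and cover counting error only. The 9 receptors and the gene lists were chosen with earlier results of these data known. All 9 receptors are named. From the other lists, up to 4 genes with the smallest adjusted p in each direction and those at 0 in every library may be named, and markers given with counts were picked after their values were seen. Promoter windows came from RefSeq (GRCm38.p6) and gene positions from the tables and GENCODE M39. Values of a few list genes are not reported here.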

Additional observations from a re-analysis of the deposited data

How the results depend on the processing

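Of 251 values of single receptors under the alternatives, 221 kept their direction and side of the threshold, 4 lost the threshold, 3 gained it and 23 changed sign, none of the last past the threshold. The number of receptors that passed in MBV against PBS was 1, and was 2, with Ccr2 added, with all 9 libraries in 1 fit (edgeR adjusted p = 0.0492) and with a term for the replicate number (replicate block, log2 fold change 2.09, edgeR adjusted p = 0.00853). It was 0 to 2 when 1 library was left out. DESeq2 gave Ccr2 an adjusted p of 0.12. In Fluvastatin against PBS the number was 1, and 0 with a fold of at least 2 required, and 0 to 1 when 1 library was left out. It was 0 in MBV against Fluvastatin under all alternatives run. There, 2 receptors (Ccr2 and Cxcr2) were under 0.05 before adjustment, and all genes called were 11 by edgeR and 126 by DESeq2. The labels do not say whether the replicate numbers pair the samples. Of 9 same-numbered pairs, 1 had a correlation of deviations over 0.1 (−0.432 to 0.235 over 13159 genes). Pairs of different numbers ran from −0.393 to 0.443, so these correlations cannot settle it. In the combined treatment the 2 receptors past 2-fold became 3 at 1.5-fold, with Cxcr4, and 2 at 3-fold, limits chosen after seeing the data.

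The sign changes were as follows when 1 library was left out, on the log2 scale. For MBV against PBS, without PBS replicate 1 Ccrl2 was −0.03, Cx3cr1 −0.047 and Cxcr4 0.09, and over all left-out libraries they ranged from −0.66 to 0.72, −0.047 to 0.28 and −0.59 to 0.14, while Ccr1 ranged from −0.67 to 1.21. For Fluvastatin against PBS, Ccr2 ranged from −0.63 to 0.65, Ccrl2 from −0.19 to 0.53 and Cx3cr1 from −0.14 to 0.21. Cx3cr1 was also −0.0032 with library totals alone. For MBV against Fluvastatin, Ccrl2 ranged from −0.77 to 0.61, Cx3cr1 from −0.014 to 0.23, Cxcr4 from −0.24 to 0.49 and Cxcr6 from −0.070 to 0.13. The cause was not tested. With 0 to 9 counts per library, Cxcr2 and Ccr7 are limited by depth.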
